A study of Mus musculus with 2 samples.

Results

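Small nucleolar RNA host genes are genes whose introns carry small nucleolar RNAs (snoRNAs), and 7 of them were examined in embryonic mouse limb: Gas5, Snhg1, Snhg3, Snhg5, Snhg6, Snhg8 and Snhg12. Members were taken by symbol, through the Ensembl identifier without its version, from tables that list 43346 Ensembl genes. A row was found for 5 of the 7. The identifiers of Snhg1 (ENSMUSG00000108414) and Snhg8 (ENSMUSG00000104960) in the reference annotation have no row, so the RNAs of these genes were not analysed here, although the snoRNAs inside them have rows.

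The data are total RNA sequencing of limb from B6NCrl mouse embryos at embryonic day 14.5, with 2 libraries in 1 group and no second condition. Per the labels, each library came from the 4 limbs of a pup, with the sex given as pooled, and its input was 10 ng of RNA above 200 nt, with spike-in RNAs. The labels call the libraries biological replicates 1 and 2 but give both the same donor, pup and pregnancy numbers on different days of collection, and each SD over n = 2 measures the spread between these libraries only. Any ratio between them compares 1 library with 1 library and cannot be checked against replicates.

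A host gene is transcribed and spliced like a messenger RNA gene, and its snoRNAs are trimmed out of the excised introns. Box C/D snoRNAs guide methylation of ribosomal RNA and box H/ACA snoRNAs guide its pseudouridylation, while a few snoRNAs act in cleavage of the ribosomal RNA precursor. The joined exons of most members encode no conserved protein. Many such genes start with a run of pyrimidines (a 5′ terminal oligopyrimidine, or TOP, start) like the ribosomal protein genes, and their spliced RNAs are known targets of nonsense-mediated decay in cultured cells.

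The libraries held 34193161 expected counts in replicate 1 and 32879425 in replicate 2. In TPM (a transcript abundance corrected for length), Xist, the RNA of the inactive X chromosome, was 0.03 in replicate 1 and 79.0 in replicate 2, while 4 Y-linked genes summed to 96.1 in replicate 1 and 0 in replicate 2, against a pooled sex in both labels. Of 16 limb mesenchyme markers, all 16 reached 1 TPM in both libraries, with a summed level of 568 and 721 TPM in replicates 1 and 2. In replicates 1 and 2, red blood cell markers summed to 26936 and 18272 TPM, skeletal muscle markers to 1746 and 1148 TPM, epidermis markers to 1297 and 1127 TPM, and cartilage markers to 928 and 939 TPM. Of 9 markers of liver, heart and lung, Tnni3 was the only one at 1 TPM or more in each library, the 9 summed to 5.12 and 5.84 TPM, and Sftpb was listed at 0. In bulk tissue, fewer cells of a type and less RNA per cell cannot be told apart.

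The letters at the start of the leading transcript of each host gene are shown because the TOP start is the sequence feature these genes are known for. The leading transcript is the one of highest mean TPM, and each sequence gives its first 25 bases, 5′ to 3′, from the GENCODE M21 transcripts on GRCm38. Capitals mark a run of 5 or more C or T within the first 10 bases, read on the transcript strand only. Positions are chr1:161035067-161035091 (plus strand) for Gas5-210, chr1:9944094-9944118 (minus) for Snhg6-203, chr9:88521941-88521965 (minus) for Snhg5-203, chr4:132353662-132353686 (minus) for Snhg3-204 and chr4:132308678-132308702 (plus) for Snhg12-206. Gas5-224 and Gas5-213, the next transcripts of Gas5, start at chr1:161035163-161035187 and chr1:161035166-161035190 (plus).
Gas5-210: gagggcgtgtgaggggcggggttta
Gas5-224: agCCTTTCggagctgtgcggcattc
Gas5-213: CTTTCggagctgtgcggcattctga
Snhg6-203: CTTTCTCggcagcgccgtagagcgc
Snhg5-203: ccagtgagatgccagcctgcgtgtg
Snhg3-204: gaCTTCCgggcgttacttaaggtat
Snhg12-206: TTTCTCgcttcatccgcggtccctg

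The run was present in the leading transcripts of Snhg3, Snhg6 and Snhg12, that is 3 of 5, and absent from those of Gas5 and Snhg5. In Snhg3-204 it begins at base 3 and not at the first base. The annotated start of Snhg5-203, at 88521965, lies inside the gene, which reaches 88522929 on the minus strand. Among 11306 detected genes whose leading transcript had the same length in the tables and the reference, 15.4% had it. The share was 36.8% of 57 ribosomal protein genes, 31.8% of 22 noncoding genes with an annotated snoRNA and 17.5% of 189 protein-coding genes with one. Since most ribosomal protein genes lacked the run by this measure, its absence says little of a TOP start. Weighted by level, transcripts with the run held 42.0 ± 0.403% of Gas5 TPM, 90.7 ± 1.62% of Snhg3, 21.8 ± 1.23% of Snhg5, 60.6 ± 1.86% of Snhg6 and 68.2 ± 2.29% of Snhg12 (SD, n = 2). Transcripts not matched in structure, with 31.8% of Snhg5 TPM and 20.3% of Snhg12 TPM, count here as lacking the run, so the shares of these 2 genes are lower limits. The Gas5 share came largely from Gas5-224 and Gas5-213, which start 3 bases apart. An annotated start is not a mapped one, and the start of the RNA in limb was not measured by these tables.

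All 5 host genes with a row were detected, and Gas5 held most of their RNA. Detection meant at least 1 TPM in each library, and 5 of 5 met it, beside 34.0% of all genes and 11.0% of long noncoding genes. The summed level was 949 and 903 TPM in replicates 1 and 2 (926 ± 33.0 TPM, SD, n = 2), of which Gas5 held 71.0% and 72.6%. Among the 861 long noncoding genes of mean 1 TPM or more, the 5 ranked between the 7th and the 59th.

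Gas5, named for its accumulation in growth-arrested cells and host of box C/D snoRNAs, stood at 674 and 655 TPM in replicates 1 and 2 (665 ± 13.5 TPM, SD, n = 2), on 8374 and 7607 expected counts. The gene (ENSMUSG00000053332) spans chr1:161034422-161038539 on the plus strand in GRCm38. Its level lay above that of 98.8% of detected protein-coding genes, and the libraries differed little beside the distance to every other member.

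Snhg6 and Snhg5 formed the next step. Snhg6, host of the box C/D snoRNA Snord87 (ENSMUSG00000098234, chr1:9941959-9944118, minus strand), stood at 107 and 93.2 TPM in replicates 1 and 2 (100.1 ± 9.77 TPM, n = 2), on 1116 and 927 counts. Snhg5, host of Snord50a and Snord50b (ENSMUSG00000097195, chr9:88521050-88522929, minus strand), stood at 95.8 and 89.3 TPM in replicates 1 and 2 (92.6 ± 4.58 TPM, n = 2), on 1324 and 1122 counts. The 2 genes overlapped between libraries and did not differ beyond their spread.

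Snhg3, host of the pair Snora73a and Snora73b, whose RNAs act in processing of the ribosomal RNA precursor (ENSMUSG00000085241, chr4:132348014-132353686, minus strand), stood at 51.1 and 42.5 TPM in replicates 1 and 2 (46.8 ± 6.07 TPM, n = 2), on 410 and 322 counts. Snhg12, host of 3 box H/ACA snoRNAs and of the box C/D snoRNA Snord99 (ENSMUSG00000086290, chr4:132308623-132311024, plus strand), stood at 21.3 and 22.6 TPM in replicates 1 and 2 (21.9 ± 0.962 TPM, n = 2), on 272 and 270 counts. Snhg12 was the lowest in both libraries, yet still above 93.1% of detected long noncoding genes and 55.7% of detected protein-coding genes.

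In the order Gas5, Snhg6, Snhg5, Snhg3 and Snhg12, 3 of 4 neighbours differed. They were called different where no library of one reached a library of the other and the difference of means exceeded the sum of the SDs. The mean TPM was 6.64-fold higher in Gas5 than in Snhg6, 1.98-fold higher in Snhg5 than in Snhg3 and 2.13-fold higher in Snhg3 than in Snhg12, against 1.08-fold between Snhg6 and Snhg5. The order was the same in each library alone.

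**Figure D1:**
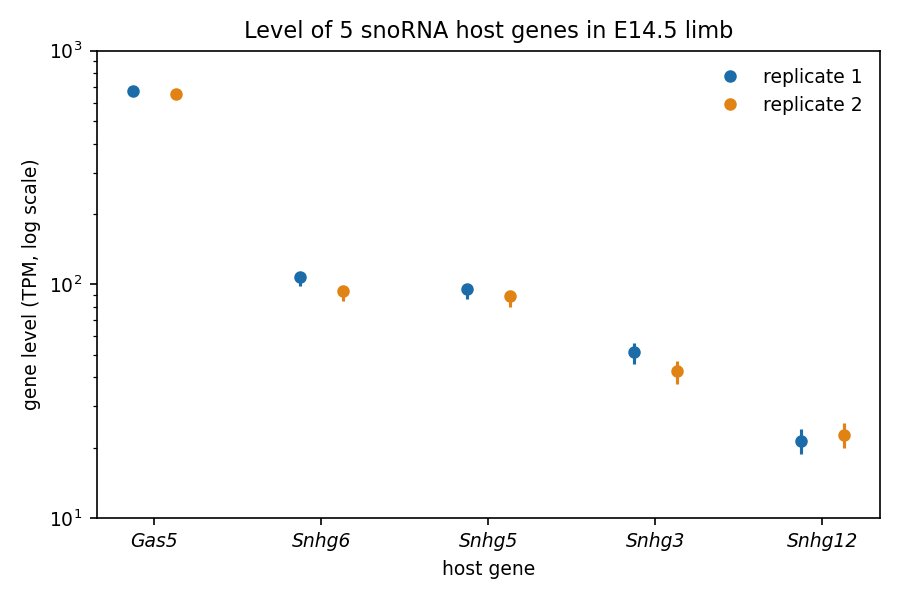
Gene level (y axis, TPM, log scale) of the 5 host genes with a row (x axis) in replicate 1 (blue) and replicate 2 (orange); vertical lines are the interval bounds deposited by the authors, whose level is not given. Gas5 lies at 674 and 655 TPM, Snhg6 and Snhg5 overlap between 89.3 and 107 TPM, and Snhg12 is lowest at 21.3 and 22.6 TPM.

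Some of these genes share their locus with others, which can limit how firmly reads are assigned. No source used here states the strand of the libraries, which bears only on partners on the opposite strand. Snhg3 lies almost wholly within the span of Rcc1, a chromatin-bound exchange factor gene on the same strand, which stood at 31.7 and 32.3 TPM in replicates 1 and 2. It also faces the noncoding gene Gm17300 on the opposite strand, at 3.63 and 3.83 TPM in replicates 1 and 2. The deposited posterior SD of the Snhg3 count was 5.53 and 5.54 counts in replicates 1 and 2 and that of Gm17300 was 6.94 and 7.11 counts, while that of Rcc1 was 0 in both. Gas5 overlaps Zbtb37 on the opposite strand over 428 nt, at 4.95 and 6.72 TPM in replicates 1 and 2, and Snhg6 overlaps Mcmdc2 over 127 nt, at 1.45 and 1.35 TPM. Both partners were far below the host they face. The deposited posterior SD of the host count was 0 for Gas5 in both libraries. For Snhg6 it was 0.13 and 0.05 counts in replicates 1 and 2.

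The tables hold 50 transcripts of the 5 genes, of which 7 were at 0 in both libraries. The leading transcript was the same in both libraries for 5 of 5 genes, and the share of all genes that keep theirs was not computed. Structures came from the reference annotation, which is later than the one the tables were made with: 43 transcripts matched in length, 5 differed in length and 2 have no entry.

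Gas5 had 25 transcripts and 3 at 5% or more of the gene. Gas5-210 held 36.4% of Gas5 TPM in replicate 1 and 34.4% in replicate 2, at 245 and 225 TPM. In replicates 1 and 2, Gas5-224 held 27.6% and 28.5%, and Gas5-213 held 9.03% and 8.08%. All 3 have the 9 snoRNA loci of Gas5 in their introns. The other 22 transcripts each stayed under 5%, and 16 of the 25 have a whole snoRNA inside an exon.

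Snhg3 had 1 dominant transcript: Snhg3-204 held 85.3% and 82.7% in replicates 1 and 2, Snhg3-202 held 8.20% and 10.5%, and Snhg3-203 held 6.5% and 6.82%. Snhg12 was similar in replicates 1 and 2, with 69.8% and 66.5% in Snhg12-206, 16.2% and 15.0% in Snhg12-205 and 6.08% and 9.52% in Snhg12-207. Snhg6 was spread over 4 transcripts in both libraries, with, in replicates 1 and 2, 39.3% and 39.6% in Snhg6-203, 24.6% and 26.7% in Snhg6-205, 22.6% and 19.7% in Snhg6-204 and 13.5% and 14.0% in Snhg6-202. All 4 of these carry Snord87 in an intron.

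Snhg5 was the most divided, with 7 of 8 transcripts at 5% or more in a library. Snhg5-203 led with 26.3% and 24.7% in replicates 1 and 2, followed by Snhg5-204 with 21.0% and 22.7%, Snhg5-205 with 16.3% and 14.3% and Snhg5-206 with 14.1% and 16.2%. Snhg5-202 held 4.68% and 6.54% in replicates 1 and 2. The 2 transcripts without a reference entry moved most between replicates 1 and 2: ENSMUST00000182900 held 8.34% and 13.5%, and ENSMUST00000183030 held 9.23% and 2.07%, where the deposited bounds ran between 0.243 and 10.2 TPM in replicate 1 and between 7.8e-05 and 4.39 TPM in replicate 2. Those bounds overlapped, while the estimate of 8.85 TPM in replicate 1 lay above the upper bound in replicate 2, and the level of the bounds is not given.

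Some host transcripts keep a snoRNA inside an exon, so that the RNA holds the snoRNA sequence unexcised. The snoRNAs of the main cases are shown, with capitals marking the C box (or its first 5 bases, in Snord78) and the D box of box C/D snoRNAs, and the ACA that lies 3 bases from the 3′ end of box H/ACA snoRNAs. Snord78 (chr1:161036984-161037049, plus strand) lies in an exon of 6 Gas5 transcripts, more than any other snoRNA there. Snord50a (chr9:88521529-88521600, minus) and Snord50b (chr9:88521797-88521868, minus) lie in Snhg5-204 and Snhg5-205. Snora61 (chr4:132310240-132310369, plus) lies in Snhg12-207. Sequences are from GENCODE M21 on GRCm38.
Snord78: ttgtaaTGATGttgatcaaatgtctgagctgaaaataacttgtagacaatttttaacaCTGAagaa
Snord50a: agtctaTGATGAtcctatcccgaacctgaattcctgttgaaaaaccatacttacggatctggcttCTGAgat
Snord50b: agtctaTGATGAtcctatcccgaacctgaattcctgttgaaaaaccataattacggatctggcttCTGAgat
Snora61: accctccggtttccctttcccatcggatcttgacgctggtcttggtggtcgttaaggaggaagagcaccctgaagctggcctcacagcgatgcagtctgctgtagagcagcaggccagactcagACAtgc

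Snord50a and Snord50b differ at 1 of 72 positions, C50A counted from 1 at the 5′ end with the base of Snord50a first. The start of Snhg5-205 (chr9:88521845-88521869, minus strand) begins 1 base before the 5′ end of Snord50b, so its first letters are those of the snoRNA itself, whereas Snhg5-204 (chr9:88522864-88522888, minus strand) begins with a pyrimidine run upstream of both snoRNAs.
Snhg5-204: CTTTTacgacggagcctaagatatt
Snhg5-205: tagtctatgatgatcctatcccgaa

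Transcripts with a whole snoRNA in an exon held part of the host gene TPM, all of it in Gas5, Snhg5 and Snhg12. Over the 5 genes the share was 19.1% and 21.0% in replicates 1 and 2 (20.0 ± 1.39%, SD, n = 2). In Gas5 it was 21.3% and 23.4% in replicates 1 and 2 (22.4 ± 1.55%). The largest contributors in replicates 1 and 2 were Gas5-222 at 20.5 and 19.3 TPM, with Snord78 and 2 other snoRNAs in exons, Gas5-211 at 21.3 and 17.0 TPM and Gas5-206 at 16.2 and 22.2 TPM. In Snhg5 the share was 37.3% and 37.0% in replicates 1 and 2 (37.2 ± 0.242%), from Snhg5-204 and Snhg5-205 alone. In Snhg12 it was 9.07% and 14.1% in replicates 1 and 2 (11.6 ± 3.52%), from the low transcripts Snhg12-207, with Snora61, and Snhg12-203, with Snora44. No transcript of Snhg3 or Snhg6 has a whole snoRNA in an exon.

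These shares depend on how a transcript is classed and weighted. By expected counts, which long transcripts raise, the share was 30.8% over the 5 genes and 35.1% in Gas5. Counting any base of a snoRNA in an exon added Snhg3-202, whose exon holds 159 of the 205 bases of Snora73a, and Snhg3 then stood at 9.34 ± 1.62%. Transcripts that could not be matched in structure held 31.8% of Snhg5 TPM and 20.3% of Snhg12 TPM. Classed by the reference structure all the same, Snhg12 stood at 29.3%, since Snhg12-205 then counts with Snord99. The annotation's own retained intron type held 35.6 ± 1.05% of Gas5 TPM and 52.3 ± 1.26% of Snhg5 TPM, and no transcript of Snhg3, Snhg6 or Snhg12 has that type. Whether reads came from finished RNAs, from unspliced precursors or from DNA was not tested.

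**Figure D2:**
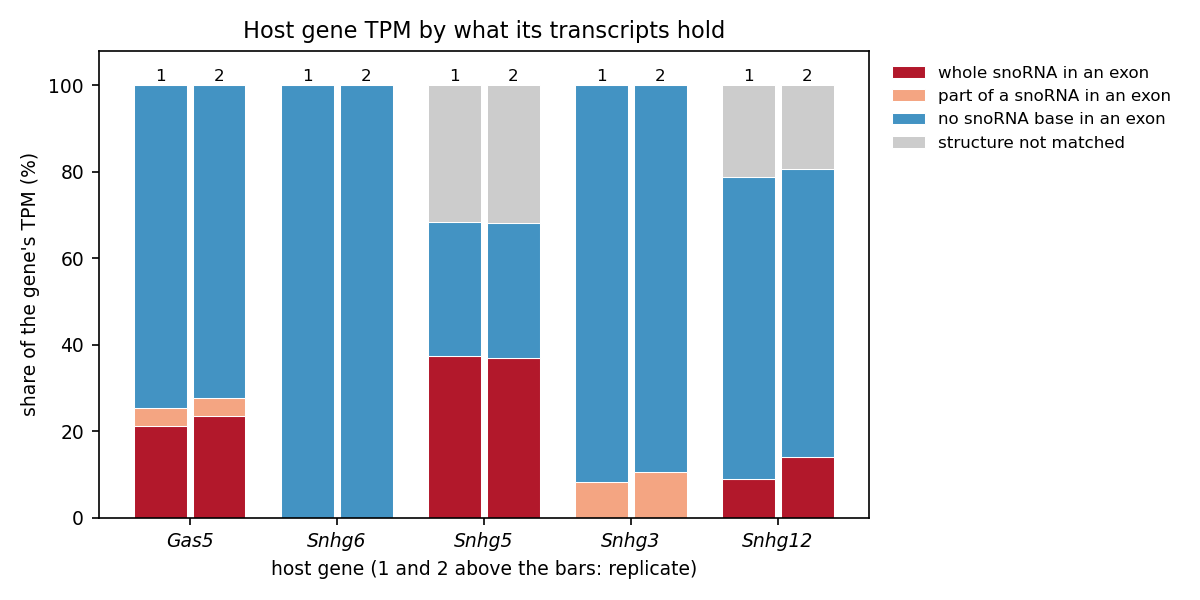
Share of each host gene's TPM (y axis, percent) in transcripts with a whole snoRNA in an exon (dark red), with part of one (light red), with none (blue) and not matched to the reference structure (grey), for replicate 1 (left bar) and replicate 2 (right bar) of each gene. Snhg5 shows the highest whole-snoRNA share, 37.3% and 37.0%, Gas5 21.3% and 23.4%, and Snhg6 none.

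The snoRNAs themselves were nearly absent from the tables, which were made from RNA longer than 200 nt. The 7 members hold 27 annotated snoRNA loci on their strand: 9 in Gas5, 8 in Snhg1, 4 in Snhg12, 2 each in Snhg3 and Snhg5, and 1 each in Snhg6 and Snhg8. One of the 9 in Gas5 carries the symbol Mir5117 but is typed as a snoRNA. All 27 have a row, but 20 of these have an effective length of 0, since the deposited effective length is 99 nt below the length, and no row of that kind can receive a value. Across the tables, 460 of 1525 snoRNA rows have an effective length of 0, and 0 of the 460 hold a count.

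The 7 longer rows held few counts. Snora73b in Snhg3 had 9.50 expected counts in replicate 1 and 10.5 in replicate 2, against 0 and 1.65 for Snora73a. These 2 copies differ at 7 of 205 bases, so reads may be split between them. Snora24, inside Snhg8, had 2 and 5 counts in replicates 1 and 2, or 2.81 and 7.51 TPM over an effective length of 31 nt. In replicates 1 and 2, Snora16a had 1 and 0 counts, Snora61 0.72 and 0.09, Snora44 0 and 0.13 and Snord22, inside Snhg1, 0 and 0.06. A count of 0 allows up to 3 counts, so only Snora73b in both libraries and Snora24 in replicate 2 stood above what a count of 0 allows. Reads of a snoRNA and of the intron around it cannot be told apart in these rows.

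Position within the intron was shared by most of the loci. The 3′ end of the snoRNA lay a median of 75 nt before the nearest annotated 3′ splice site, with a range of 51 to 313 nt, and 22 of 27 lay between 60 and 90 nt. That held for 17 of 21 loci outside the Snora family and for 5 of 6 Snora loci. The farthest were Snord80 in Gas5 at 313 nt, Gm26224 in Gas5 at 278 nt, Snora16a in Snhg12 at 237 nt and Gm23246 in Snhg1 at 121 nt. In the same introns, the distance from the 5′ splice site ran from 24 to 557 nt. Each intron was chosen by its nearest 3′ splice site and not by its 5′ site, so the spreads of these distances cannot be compared. For intronic box C/D snoRNAs, a set distance before the 3′ splice site is a known property, linked to assembly of their particle on the spliceosome.

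Between the libraries the host genes differed little, and 4 of 5 stood slightly higher in replicate 1. Ratios are replicate 1 over replicate 2 of expected counts, scaled by TMM (trimmed mean of M values), with exact binomial 95% intervals (Clopper-Pearson) that cover counting error only. The log2 ratio was 0.12 for Gas5 (0.07 to 0.16), 0.25 for Snhg6 (0.12 to 0.37) and 0.22 for Snhg5 (0.10 to 0.33). It was 0.33 for Snhg3 (0.11 to 0.54), a 1.26-fold difference, and -0.01 for Snhg12 (-0.26 to 0.24). Intervals of 4 genes excluded 0 and that of Snhg12 did not. The share of all genes whose interval excludes 0 was not computed, so this count cannot be set against other genes.

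Past 1.2-fold either way stood 1 of 5, Snhg3, beside 22.6% of all genes of mean 1 TPM or more, and past 1.5-fold stood 0 of 5, beside 7.09%. For higher in replicate 1 alone the counts were 1 and 0, beside 11.9% and 3.91%. Among genes of mean 10 TPM or more, where all 5 host genes lie, 9.22% stood past 1.2-fold either way. A log2 ratio above 0 was found in 4 of 5, beside 50.8% of all genes. The median of the 5 was 0.22, beside 0.0027 over all genes. The count of 4 was the same under DESeq2 size factors, total counts, spike-in counts and TPM, with medians between 0.10 and 0.23. Of all genes, 52.8%, 42.7%, 37.2% and 34.3% stood above 0 under these, in that order. Scalings of counts shift every ratio by the same amount, so they are not independent of each other.

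The ribosomal protein genes stood slightly higher in replicate 1 as well. Of 87 ribosomal protein genes, 87 had a log2 ratio above 0 under TMM, with a median of 0.16, and 84 under spike-in counts and 80 under TPM. Of all genes, 50.8%, 37.2% and 34.3% stood above 0 under these, in that order. At 1.2-fold or more higher in replicate 1 stood 6 of the 87, beside 11.9% of all genes. Setting these gene classes under the other scalings was chosen after seeing the data. The 26 noncoding genes with an annotated snoRNA had a median of 0.12, with 17 above 0, and the 246 protein-coding genes with one had a median of 0.03, which turned to -0.0052 under total counts and was also below 0 under spike-in counts and TPM. The median of all genes fell too, to -0.032 under total counts, -0.058 under spike-in counts and -0.073 under TPM. The protein-coding class stayed 0.026 above that median under each scaling of counts and 0.032 above it under TPM. All 861 long noncoding genes together had a median of -0.10.

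Ratios between the libraries also differed by gene length and among lists of cell type markers. Protein-coding genes under 1000 nt other than ribosomal protein genes had a median log2 ratio of 0.10, with 72.5% above 0, against -0.0017 and 49.4% for those of 1000 nt or more. The leading host transcripts, between 437 and 606 nt, belong to the short class. Of 6 red blood cell markers 5 stood at least 1.2-fold higher in replicate 1, as did 5 of 6 skeletal muscle markers. Of 16 limb mesenchyme markers 10 stood at least 1.2-fold lower in replicate 1. At the same fold, 2 of 5 epidermis markers stood higher and 0 lower, and 1 of 6 cartilage markers stood higher and 1 lower. Xist and the Y-linked genes, given above, also separated the libraries. The parts of length, of these cells and of sex in the host gene ratios were not tested.

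**Figure D3:**
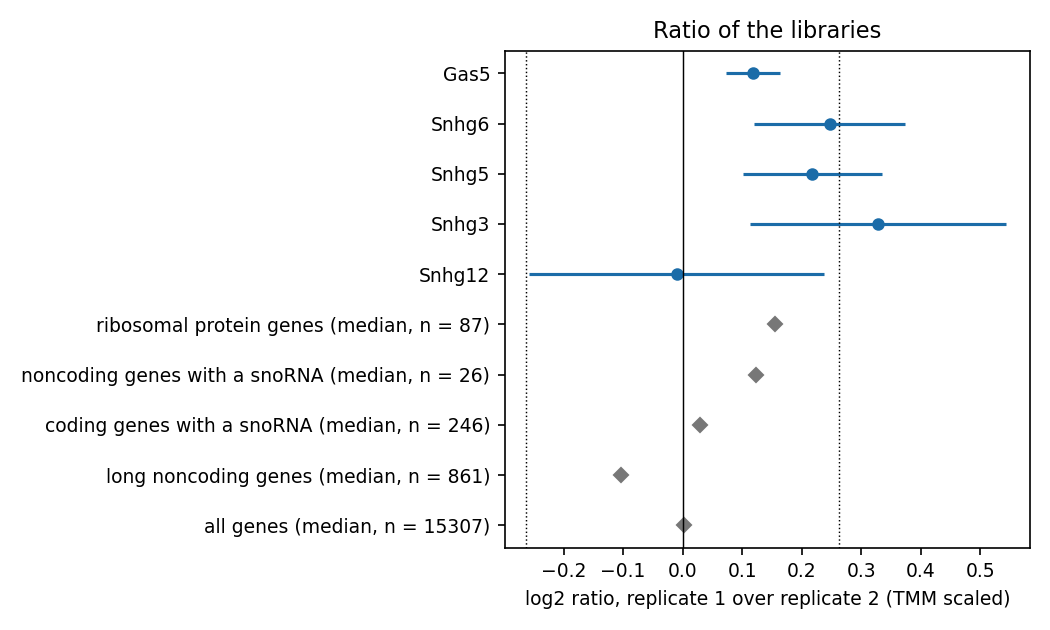
Log2 ratio of replicate 1 over replicate 2 (x axis, TMM scaled) for the 5 host genes (blue, bars are 95% exact binomial intervals for counting error) and the medians of gene classes (grey diamonds); dotted lines mark 1.2-fold. Snhg3 lies past the line at 0.33, Snhg12 lies at -0.01, and the median of all genes lies at 0.0027.

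Beside the other noncoding genes that carry snoRNAs, the 5 ranked between the 1st and the 16th. In the tables, 47 noncoding genes have an annotated snoRNA on their strand, and 26 (55.3%) reached 1 TPM in both libraries, against 10.7% of 6806 noncoding genes without one. Gas5 ranked the 1st of the 47, Snhg6 the 5th, Snhg5 the 6th, Snhg3 the 10th and Snhg12 the 16th, with the same ranks among the 26. Between them lay, among genes chosen here after their values were seen, Cct6a at 278 and 297 TPM in replicates 1 and 2, a chaperonin subunit gene that the annotation types as noncoding, the imprinted Rian at 202 and 176 TPM, and Zfas1 at 67.1 and 64.6 TPM. Level did not follow the number of loci in every case, since Snhg6 with 1 locus stood above Snhg12 with 4, while Gas5 with 9 was highest. A relation of level to number of loci was not computed.

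Other genes named Snhg ranged from 2.33 to 82.9 TPM in mean level. Of 11 listed, 7 had a row and all 7 were detected. Snhg20 was highest at 82.8 and 83.0 TPM in replicates 1 and 2, followed by Snhg18 at 34.9 and 37.5 TPM and Snhg15 at 29.4 and 23.1 TPM. Snhg20 thus stood above Snhg3, and the list median of 25.9 TPM lay just above Snhg12.

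**Figure D4:**
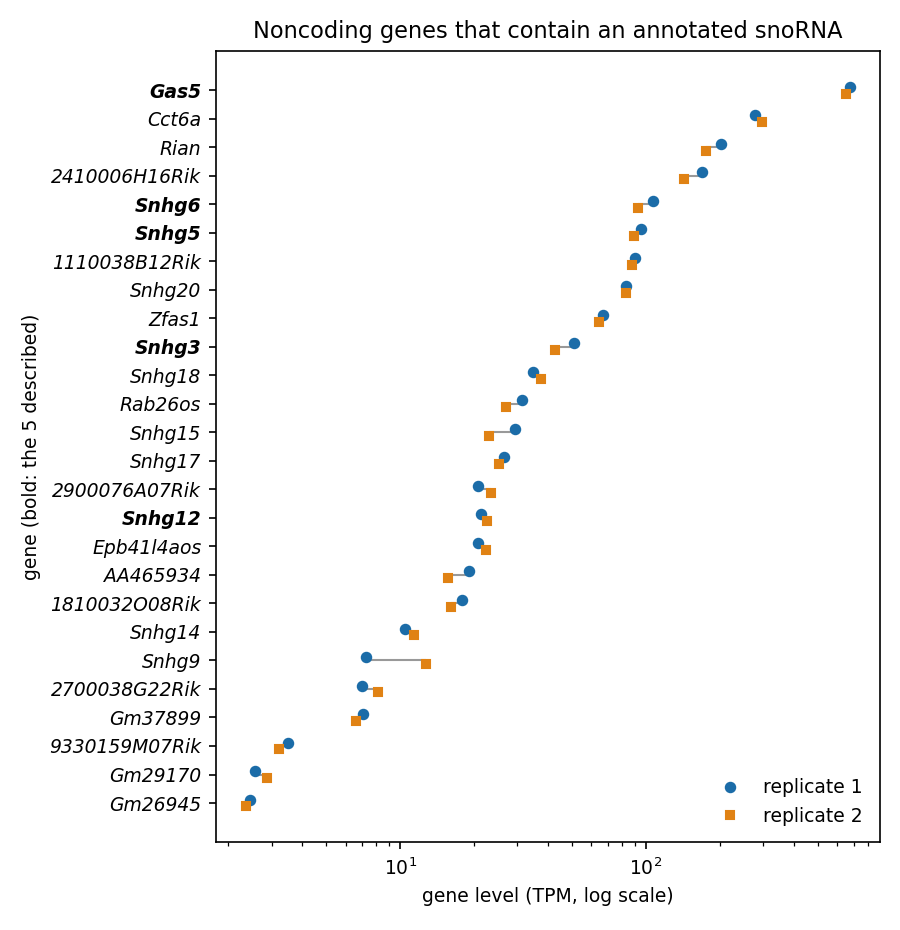
Gene level (x axis, TPM, log scale) of the 26 noncoding genes of mean 1 TPM or more that contain an annotated snoRNA, ranked by mean, in replicate 1 (blue circles) and replicate 2 (orange squares); bold names are the 5 host genes described. Gas5 leads at 674 and 655 TPM, and Snhg12 is the 16th at 21.3 and 22.6 TPM.

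Over all 276 protein-coding genes with an annotated snoRNA, 87.7% were detected and the median was 27.0 TPM, against 61.1% and 4.73 TPM for 21198 without one. Of the 5 host genes, Snhg12 alone lay below that median. A list of 24 known hosts, many of them ribosomal protein and translation factor genes, was higher. It counts Cct6a, which the annotation types as noncoding and which is also among the 47 above. All 24 were detected, their median level being 497 TPM, with the chaperone gene Hspa8 at 1573 and 1508 TPM in replicates 1 and 2, and with the ribosomal protein gene Rpl23a at 1395 and 1307 TPM. Gas5 alone of the 5 lay above the median of that list. Ribosomal protein genes had a median of 773 TPM, led in replicates 1 and 2 by Rpl41 at 3794 and 3519 TPM, Rps19 at 2896 and 2760 TPM and Rpl32 at 2003 and 1888 TPM, so Gas5 stood near that median and the other 4 below it. Among abundant long noncoding RNAs, the nuclear Malat1 stood at 2973 and 3634 TPM in replicates 1 and 2 and the imprinted H19 and Meg3 at 1061 and 1093 TPM and 889 and 789 TPM, all above Gas5.

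The genes that make snoRNA particles were all detected. The 4 core proteins of box C/D particles were among them, with Snu13 (which binds the snoRNA first) at 231 and 221 TPM in replicates 1 and 2, Nop56 at 191 and 195 TPM and Nop58 at 143 and 154 TPM. Of the 4 box H/ACA core proteins, in replicates 1 and 2, Nop10 stood at 161 and 149 TPM, Nhp2 at 133 and 125 TPM, and Dkc1, the pseudouridine synthase, at 87.6 and 85.5 TPM. The 9 assembly factors were led by the ATPase genes Ruvbl1 at 92.4 and 100.03 TPM in replicates 1 and 2 and Ruvbl2 at 80.9 and 86.9 TPM, and by Pih1d1 at 66.3 and 66.8 TPM. By TMM-scaled counts, each library-to-library difference in these 3 lists stayed under 1.2-fold except 1, the assembly factor gene Naf1, with a log2 ratio of 0.31 at 4.14 and 3.51 TPM in replicates 1 and 2.

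Genes of the pathways that act on host transcripts were detected as well. All 10 nonsense-mediated decay factors were detected at a median level of 16.7 TPM, led by Upf3a at 36.4 and 40.8 TPM in replicates 1 and 2 and Smg5 at 25.9 and 30.6 TPM. The 5 exon junction complex genes were led by the helicase gene Eif4a3 at 264 and 265 TPM in replicates 1 and 2, Magoh at 153 and 142 TPM and Rbm8a at 54.7 and 59.8 TPM. Of 5 regulators of TOP RNAs, the La protein gene Ssb stood at 217 and 215 TPM in replicates 1 and 2, Larp4 at 21.9 and 22.1 TPM and Larp1, which binds the TOP start, at 18.96 and 20.6 TPM. Presence of these RNAs says nothing of decay or translation of the host transcripts, which the assay does not measure.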

How the data were processed

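Total RNA-seq of 2 mouse limb libraries of 1 group was analysed. The authors deposited expected counts (estimated reads, not whole), TPM, FPKM and, per transcript, its percent of the TPM of its gene, as the file headers name them. The sample notes say that these derive from transcriptome alignments on mm10 with GENCODE M4. Aligner, quantification program, versions and strand: not given in the sources used here. Genes and transcripts were matched by identifier to GENCODE M21 on GRCm38 (the assembly mm10 names): 42462 of 43346 genes had an entry. A further 26248 rows with numeric identifiers were not used, and spike-ins held 5.29% and 5.20% of counts.

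Here R 4.3.3 with edgeR 4.0.16 gave TMM library sizes for rounded expected counts without spike-ins, and DESeq2 1.42.0 gave alternative size factors. The rest used scipy 1.17.1, pandas 2.3.3 and numpy 2.4.6 under Python 3.11.15, with matplotlib 3.10.9 for plots, and ratios and intervals were checked on simulated counts. Levels are mean ± SD over n = 2, detection is 1 TPM, and ratios with 1.2-fold and 1.5-fold calls use genes of mean 1 TPM or more. No p-value is given, since the libraries are 1 group. Intervals cover counting error only, as no molecular identifiers are recorded. A snoRNA counts as held where all its bases lie in 1 exon of a transcript of equal length in tables and reference. Named are the members, their transcripts at 5% or more in a library, their snoRNAs, and the 3 highest genes of each list with any under 1 TPM in both libraries, except where stated; some genes that the rule names are not reported here. Of 9 liver, heart and lung markers, 7 were under 1 TPM in both libraries. Alternatives were posterior mean TPM, FPKM, expected counts, other scalings, TPM minimums and filters, and each library alone. The members and lists were chosen with earlier results of these data known.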

Additional observations from a re-analysis of the deposited data

How the results depend on the processing

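Of 81 alternative values of 20 results, 70 kept within the spread or their side of the call, 11 moved and 0 reversed. Some of the 70 could not have moved. A share in either library alone always lies within the SD around the mean of both. FPKM is proportional to TPM within a library, so the order of the host genes and the share held by Gas5 in each library were fixed under it. The count of 70 is therefore no measure of how stable the results are. The share of all genes past 1.2-fold between libraries was 22.6%, 45.8% with no filter on low values and 9.22% for genes of mean 10 TPM or more. The share of TPM in transcripts with a whole snoRNA in an exon moved by expected counts to 30.8% over all host genes (from 20.0%), 35.1% in Gas5 (from 22.4%) and 42.2% in Snhg5 (from 37.2%). Further alternatives were chosen after seeing the data. With any base of a snoRNA in an exon, the share was 23.5% over all host genes and 26.6% in Gas5. With the reference structure used despite differing lengths, it was 29.3% in Snhg12 (from 11.6%). A run of 4 in place of 5 C or T within the first 10 bases left 3 leading transcripts with the run. By construction, each of these alternatives changes which genes are counted, how a transcript is weighted or how wide its class is. Among gene ratios, Gas5 moved to a log2 ratio of 0.06 by spike-in counts and 0.04 by TPM + 0.1, and Snhg5 to 0.10 by TPM + 0.1, with no change of direction. In each library alone the snoRNA-holding share ran from 19.1% to 21.0% over all host genes, from 21.3% to 23.4% in Gas5, from 37.0% to 37.3% in Snhg5 and from 9.07% to 14.1% in Snhg12. No paired analysis was possible because the libraries form 1 group. Depth limits Snhg12 and the snoRNA rows most, with 272 and 270 counts for Snhg12 and at most 10.5 for a snoRNA.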
